A study of Mus musculus with 6 samples.

Results

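The genes described here encode the factors that start translation, measured with 1-colour Affymetrix arrays in the mouse embryonic stem cell line E14Tg2a at 96 h after transfection of small interfering RNA (siRNA). The groups were Ncl siRNA #1 (2 arrays), Ncl siRNA #2 (2 arrays), both directed at the nucleolin gene Ncl, and a control siRNA duplex against firefly luciferase (2 arrays), which is not a mouse gene. All 3 groups share the E14Tg2a line, and no genotype change is labelled. The members are genes whose platform symbol starts with Eif1 to Eif6, leaving out the Eif2ak kinases, with the probe set of the highest mean over the 6 arrays standing for each gene. This gave 43 of the 18194 genes measured, namely 3 of eIF2, 5 of eIF2B, 11 of eIF3, 13 of eIF4 and its binding proteins, and 11 others. The rule uses gene symbols and no difference between groups, and was written with earlier results of these data known. Eif2s1, Eif4g1 and Eif1 had no probe set annotated to that symbol alone and were not analysed here.

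Initiation begins when eIF2, carrying the initiator tRNA and GTP, joins eIF1, eIF1A, eIF3 and the small ribosomal subunit. This assembly is brought to the capped mRNA by eIF4E, eIF4G and the helicase eIF4A and scans to the start codon, where eIF5 and eIF5B complete the join with the large subunit. Cells restrain the process by phosphorylating eIF2 so that its exchange factor eIF2B is blocked, and by letting 4E-binding proteins hold eIF4E. Nucleolin is an abundant nucleolar protein with roles in ribosome production.

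Values are log2 probe set values, differences are log2 differences with the standard error (SE) of the limma fit, and a gene rose or fell where the adjusted p was under 0.05 over all 18194 genes. Precision is limited by having 2 arrays a group, and the p-values measure the spread between these arrays, since nothing says that they came from separate cultures. Ncl itself was lower with each siRNA. Its brightest probe set read 13.77 and 13.74 with Ncl siRNA #1, 13.77 and 13.72 with Ncl siRNA #2, and 14.21 in both control arrays, and its other 4 probe sets had differences from -1.43 to -0.67 with Ncl siRNA #1 and from -1.57 to -0.54 with Ncl siRNA #2. The stem cell markers were bright in every array, with a mean over 8 markers of 12.68 to 12.70 with Ncl siRNA #1, 12.46 in both Ncl siRNA #2 arrays and 12.93 to 12.96 in control arrays. Of the 8, 6 were lower and 1 higher with Ncl siRNA #1, 7 were lower with Ncl siRNA #2, and 7 were lower with Ncl siRNA #2 against Ncl siRNA #1. Lung epithelium markers were high in the control arrays, which no label accounts for. The summed linear value of 9 such markers was 260 to 335 with Ncl siRNA #1, 337 to 343 with Ncl siRNA #2 and 11311 to 11928 in control arrays, and 8 of the 9 were lower with each Ncl siRNA. Heart muscle markers summed to 318 to 356, 308 to 314 and 687 to 828 in the same groups, with 7 of 8 lower. The 24 poly-A control probe sets, which read bacterial RNA added before labelling, averaged 8.71 ± 0.20 with Ncl siRNA #1, 8.42 ± 0.05 with Ncl siRNA #2 and 7.66 ± 0.12 in control arrays (SD, n = 2 each). These differences run with every comparison against control below, and their part in the results was not tested. In these bulk samples, fewer cells of a type and less RNA per cell cannot be told apart. Of 6 leukocyte markers, 2 were lower and 1 higher with each siRNA. They summed to 2397 to 2433 with Ncl siRNA #1, 2318 to 2429 with Ncl siRNA #2 and 2426 to 2628 in control arrays. Of 5 endothelial markers, 4 and 3 were lower and Pecam1 was higher (1.72 and 1.27), and of 6 fibroblast markers 3 were lower. Over all genes, 17.3% were lower and 20.2% higher with Ncl siRNA #1, and 21.7% and 17.7% with Ncl siRNA #2. No marker count was tested against these shares.

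On their brightest probe sets, initiation factor genes changed little in size. Against control siRNA, 8 of the 43 rose and 6 fell with Ncl siRNA #1, where 37.4% of all genes passed the test (20.2% higher, 17.3% lower). With Ncl siRNA #2, 9 rose and 12 fell, where 39.5% of all genes passed (17.7% higher, 21.7% lower). The members passing were thus 32.6% and 48.8%. The direction of the Ncl siRNA #2 calls followed the scaling: 9 rose and 12 fell with the values as deposited, 12 and 9 after quantile normalization, and 4 and 15 after each array was centred on its median. The share called that lay higher was 42.9%, 57.1% and 21.1% in these settings. The median member differed by 0.05 with Ncl siRNA #1 and by -0.02 with Ncl siRNA #2, against -0.05 and -0.04 over all genes. The median absolute difference was 0.10 and 0.12 over members and 0.23 in both comparisons over all genes. Members were bright, with 41 of the 43 among the 9097 genes left when genes below the median signal were dropped. The values over all genes were not matched for brightness, and its part in these contrasts was not tested.

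Large differences were few. A difference of at least 0.5 was seen in 2 members with Ncl siRNA #1, where 19.9% of all genes had one, and in 3 members with Ncl siRNA #2, where 22.5% did. Members ranged from -0.59 to 0.49 with Ncl siRNA #1 and from -0.67 to 0.73 with Ncl siRNA #2. The arrays of a group lay close together for these genes, with a median absolute difference between them of 0.09 with Ncl siRNA #1, 0.05 with Ncl siRNA #2 and 0.05 in control. Over all genes this spread was larger, at 0.15, 0.08 and 0.11 in the same groups. Neither this spread nor the share of large differences was matched for brightness. Groups did not overlap for 31 members with Ncl siRNA #1 and for 32 with Ncl siRNA #2, where 64.1% and 69.6% of all genes did not overlap.

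Both siRNAs gave the same call for 12 members, of which 7 rose and 5 fell, where 29.8% of all genes had such a call (15.5% higher, 14.3% lower). The 2 comparisons share their control arrays. Genes that rose with both were Eif2b2, Eif3b, Eif3c, Eif3d, Eif4a1, Eif4a2 and Eif4e3, and those that fell with both were Eif1ax, Eif3k, Eif4b, Eif4e2 and Eif4ebp2. Of these 12, Eif3b, Eif3k and Eif4a2 kept both calls under every alternative setting run, and the others lost at least 1 call in at least 1 setting. Eif3b, Eif3k and Eif4a2 have 1 probe set each, so taking the mean of all probe sets could not change their values. Eif1ax and Eif4e2 lost their calls only in that setting. No member was called in opposite directions, where 11 of the 18194 genes were. Calls in only the Ncl siRNA #1 comparison were made for Eif4h and Eif5, where 1377 of the 18194 genes had such a call. In only the Ncl siRNA #2 comparison, 9 members were called, where 1746 of the 18194 genes were. Of the members called in only 1 comparison, Eif2s3y alone passed a test of the difference between the siRNAs on the probe set used for the gene.

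**Figure D1:**
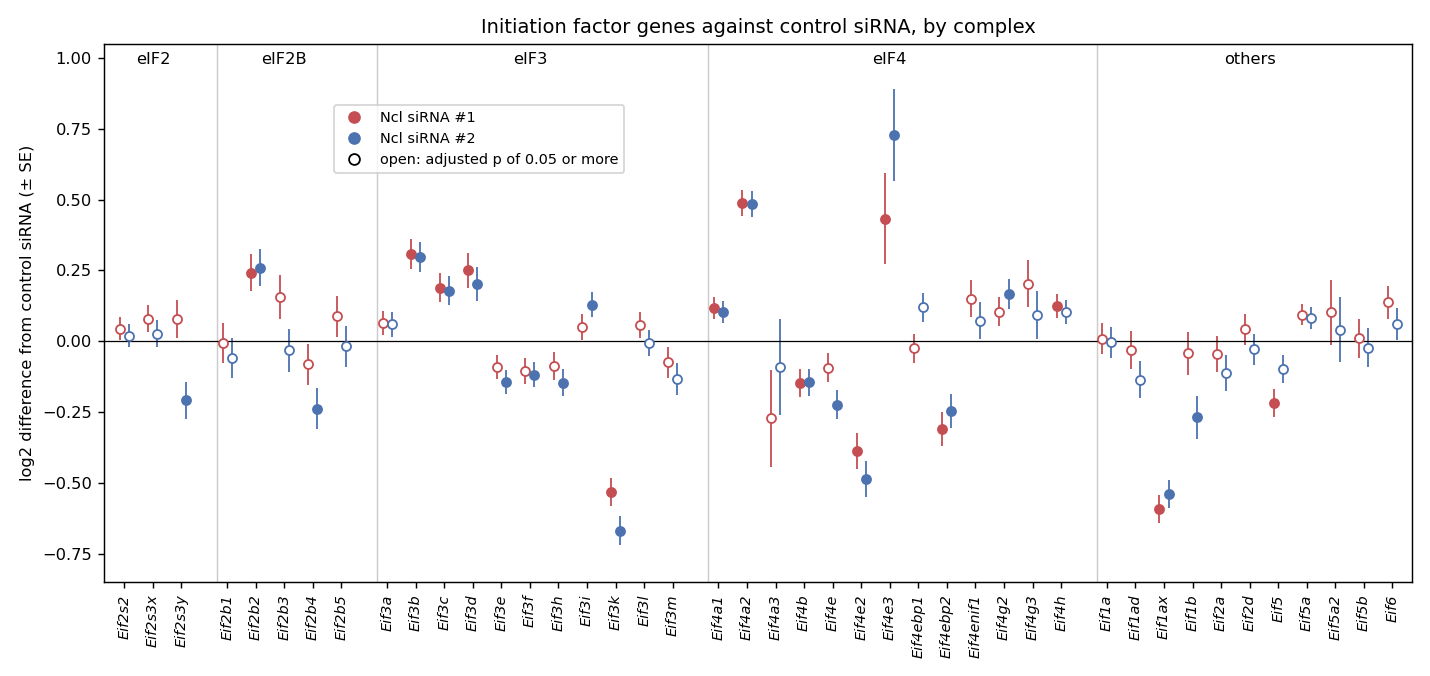
The log2 difference from control siRNA (vertical axis, bars of 1 SE from limma) is plotted for each of the 43 initiation factor genes by complex, in red for Ncl siRNA #1 and in blue for Ncl siRNA #2, with open points where the adjusted p was 0.05 or more. Most points lie within 0.25 of 0, with Eif3k and Eif1ax lowest and Eif4a2 and Eif4e3 highest.

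The promoters of 6 members that changed with both siRNAs are shown, the 3 lowest and 3 of the higher ones, so that their start regions can be set beside the values that follow. Each is 100 bases before to 20 after the annotated start, 5′ to 3′ on the gene's strand, from RefSeq on GRCm38.p6, and capitals mark the E-box letters CACGTG, the ETS-type letters CCGGAAG or the CCAAT box, on either strand, where they lie in the stretch shown. They lie at chr7:28981869-28981988 on the minus strand (Eif3k), and on the plus strand at chrX:159372078-159372197 (Eif1ax), chr1:87213811-87213930 (Eif4e2), chr16:23107368-23107487 (Eif4a2), chr5:140419205-140419324 (Eif3b) and chr12:85219381-85219500 (Eif2b2).
Eif3k: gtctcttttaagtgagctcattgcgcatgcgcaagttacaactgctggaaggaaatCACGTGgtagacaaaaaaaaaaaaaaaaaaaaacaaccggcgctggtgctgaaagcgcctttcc
Eif1ax: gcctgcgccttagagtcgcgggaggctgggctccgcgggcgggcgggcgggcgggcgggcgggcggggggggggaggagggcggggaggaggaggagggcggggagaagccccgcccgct
Eif4e2: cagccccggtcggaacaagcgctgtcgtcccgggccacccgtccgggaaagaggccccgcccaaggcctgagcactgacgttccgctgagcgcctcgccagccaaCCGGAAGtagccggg
Eif4a2: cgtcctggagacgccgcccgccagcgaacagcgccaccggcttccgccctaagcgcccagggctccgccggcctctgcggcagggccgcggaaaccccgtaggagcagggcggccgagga
Eif3b: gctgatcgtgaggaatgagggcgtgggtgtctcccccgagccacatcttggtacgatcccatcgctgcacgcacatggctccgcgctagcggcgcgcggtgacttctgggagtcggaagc
Eif2b2: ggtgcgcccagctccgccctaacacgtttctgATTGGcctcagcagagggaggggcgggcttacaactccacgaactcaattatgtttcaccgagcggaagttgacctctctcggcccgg

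The table of promoters held 34 of the 43 members, with 46 promoters of 250 bases before to 50 after a start, and 18110 promoters of measured genes. The E-box CACGTG, the core letters bound by Myc and related factors, was in 11 of the 46 (23.9%) against 8.7% of all. The letters CCGGAAG, a core bound by ETS factors, were in 17 (37.0%) against 13.0%, and CCAAT in 12 (26.1%) against 37.4%, each read on both strands. Among genes with a promoter entry, CCGGAAG was found in 3 of the 5 that fell with both siRNAs and in 3 of the 6 that rose with both, and CACGTG in 1 of the 5 and 1 of the 6. CCAAT was in 1 of the 5 and 2 of the 6. These counts are small and untested, and they include Eif1ax, Eif2b2 and Eif3c, whose probe sets disagree on direction. A match here is only a match of letters.

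Many mRNAs of the translation machinery begin with a C followed by a run of pyrimidines, the 5′ terminal oligopyrimidine motif through which mTOR signalling controls their translation. A C within 4 bases of the annotated start with at least 4 pyrimidines after it was present in 7 of the 46 member promoters (15.2%), namely those of Eif1ad, Eif2b5, Eif2s3x, Eif2s3y, Eif3b, Eif3f and Eif3l, against 14.3% of all promoters. The start regions of 3 of these, 10 bases before to 20 after the start, are given with that run in capitals, at chr7:108934405-108934434 on the plus strand (Eif3f), chr15:79075213-79075242 on the plus strand (Eif3l) and chrX:94212632-94212661 on the minus strand (Eif2s3x). In each of the 3, the run begins within 4 bases before the annotated start.
Eif3f: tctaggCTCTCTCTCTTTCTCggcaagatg
Eif3l: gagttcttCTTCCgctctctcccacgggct
Eif2s3x: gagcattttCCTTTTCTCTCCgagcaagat

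Among the eIF2 subunits, which carry the initiator tRNA to the ribosome, none of 3 passed with Ncl siRNA #1 and 1 fell with Ncl siRNA #2. Over all genes, 37.4% and 39.5% passed, and no count by complex, here or below, was tested against these shares. Eif2s2, the beta subunit, read 13.79 and 13.76 with Ncl siRNA #1, 13.76 and 13.74 with Ncl siRNA #2, and 13.73 and 13.74 in control arrays. Its differences were 0.05 (SE 0.04, adjusted p = 0.417) and 0.02 (SE 0.04, adjusted p = 0.756). The mean of its 6 probe sets was lower in both comparisons, by 0.19 (adjusted p = 0.0138) and 0.29 (adjusted p = 0.000814), so the direction of Eif2s2 depends on the probe sets used. The gamma subunit is encoded on the X chromosome by Eif2s3x and on the Y chromosome by Eif2s3y in mouse. Eif2s3x read 12.61 and 12.55 with Ncl siRNA #1, 12.52 and 12.54 with Ncl siRNA #2, and 12.53 and 12.48 in control arrays, and passed in neither comparison (0.08 and 0.03).

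Eif2s3y divided the 2 siRNAs with the values as deposited. It read 10.20 in both Ncl siRNA #2 arrays, against 10.44 and 10.53 with Ncl siRNA #1 and 10.43 and 10.39 in control arrays. The Ncl siRNA #2 arrays lay below all others, and the Ncl siRNA #1 arrays lay above the control arrays. Eif2s3y fell by 0.21 with Ncl siRNA #2 against control (SE 0.07, adjusted p = 0.0146). That call was lost in 6 of 17 alternatives, among them with either Ncl siRNA #2 array left out. With Ncl siRNA #2 against Ncl siRNA #1, Eif2s3y fell by 0.29 (SE 0.07, adjusted p = 0.00904). Its difference with Ncl siRNA #1 against control was 0.08 (adjusted p = 0.387). The test between the siRNAs did not pass with either Ncl siRNA #2 array left out (adjusted p = 0.117 without replicate 1 and 0.110 without replicate 2), nor with the mean of its probe sets (-0.27, adjusted p = 0.163). The second Eif2s3y probe set in that mean averaged 3.65, below every array's median of 5.73 to 5.79. The stem cell markers also divided the siRNAs, with 7 of 8 lower in Ncl siRNA #2, and their part in the result was not tested.

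The 5 subunits of eIF2B, the guanine nucleotide exchange factor of eIF2, split as 1 that rose with both siRNAs, 1 that fell with Ncl siRNA #2 and 3 that passed in neither. Eif2b2, the beta subunit, read 10.66 and 10.54 with Ncl siRNA #1, 10.62 and 10.61 with Ncl siRNA #2, and 10.37 and 10.34 in control arrays. All 4 Ncl siRNA arrays lay above the control arrays, by 0.24 (SE 0.07, adjusted p = 0.00524) and 0.26 (SE 0.07, adjusted p = 0.00261). A second Eif2b2 probe set of almost the same brightness moved the other way, with 10.50 and 10.41 with Ncl siRNA #1, 10.37 and 10.44 with Ncl siRNA #2, and 10.72 and 10.66 in control arrays. It was lower by 0.23 and 0.29, and the direction of Eif2b2 mRNA is therefore not settled by these arrays.

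Eif2b4, the delta subunit, read 10.90 and 10.71 with Ncl siRNA #1, 10.57 and 10.73 with Ncl siRNA #2, and 10.87 and 10.91 in control arrays. It fell by 0.24 with Ncl siRNA #2 (SE 0.07, adjusted p = 0.0109) and passed no test with Ncl siRNA #1 (-0.08). With Ncl siRNA #2 replicate 1 left out, the Eif2b4 difference was -0.16 and did not pass (adjusted p = 0.229). The catalytic epsilon subunit Eif2b5 read 10.98 and 10.73 with Ncl siRNA #1, 10.75 and 10.74 with Ncl siRNA #2, and 10.73 and 10.80 in control arrays, with overlapping groups. Eif2b1, the alpha subunit, read 10.66 and 10.54, 10.57 and 10.52, and 10.70 and 10.52 in these groups, which also overlapped. Eif2b3, the gamma subunit, read 10.14 and 9.95 with Ncl siRNA #1, 9.82 and 9.90 with Ncl siRNA #2, and 9.88 and 9.90 in control arrays, and its difference of 0.16 with Ncl siRNA #1 had an adjusted p of 0.118.

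The eIF3 subunits, which form the scaffold on the small ribosomal subunit, moved in both directions. With Ncl siRNA #1, 3 of 11 rose and 1 fell, and with Ncl siRNA #2, 4 rose and 4 fell. Eif3k, a small peripheral subunit, was among the 2 lowest members in both comparisons. Its arrays read 12.42 and 12.33 with Ncl siRNA #1, 12.21 and 12.27 with Ncl siRNA #2, and 12.88 and 12.94 in control arrays, so that the groups were far apart. Eif3k fell by 0.53 with Ncl siRNA #1 (SE 0.05, adjusted p = 1.6e-08), to 69.1% of the control value on the linear scale, and by 0.67 with Ncl siRNA #2 (SE 0.05, adjusted p = 3.67e-10), to 62.9%. The 95% interval of the difference ran from -0.64 to -0.43 and from -0.77 to -0.56. Eif3k has 1 probe set, and between the siRNAs its difference of -0.13 did not pass (adjusted p = 0.0998).

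Eif3b, a core subunit that holds the RNA-binding and propeller part of the complex, rose with both. It read 12.14 and 12.05 with Ncl siRNA #1, 12.10 and 12.07 with Ncl siRNA #2, and 11.82 and 11.76 in control arrays. The differences were 0.31 (SE 0.05, adjusted p = 6.82e-05) and 0.30 (SE 0.05, adjusted p = 7.69e-05), or 124% and 123% of control, from its only probe set. Eif3d, a subunit that can bind the cap of some mRNAs, read 12.49 and 12.26 with Ncl siRNA #1, 12.30 and 12.36 with Ncl siRNA #2, and 12.11 and 12.15 in control arrays. Its rises were 0.25 (adjusted p = 0.00229) and 0.20 (adjusted p = 0.0107), with no overlap between Ncl siRNA and control arrays. The other Eif3d probe set averaged 5.02, below every array's median of 5.73 to 5.79. Leaving out Ncl siRNA #1 replicate 1 gave Eif3d a difference of 0.13 with that siRNA (adjusted p = 0.0542), and the mean of its probe sets gave 0.07 (adjusted p = 0.545) and 0.15 (adjusted p = 0.219), so neither call held throughout.

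Eif3c, another core subunit, read 13.42 and 13.26 with Ncl siRNA #1, 13.29 and 13.37 with Ncl siRNA #2, and 13.13 and 13.16 in control arrays, and rose by 0.19 (adjusted p = 0.00492) and 0.18 (adjusted p = 0.00698). Its 4 probe sets disagreed. The second brightest was higher by 0.22 and 0.19, whereas the dimmest read 12.20 and 11.97 with Ncl siRNA #1, 12.09 and 12.06 with Ncl siRNA #2, and 12.58 and 12.60 in control arrays, lower by 0.51 and 0.52. Averaged over its probe sets, Eif3c differed by -0.05 and -0.08 and passed no test, and without Ncl siRNA #1 replicate 1 its difference with that siRNA was 0.11 (adjusted p = 0.0905). The large subunit Eif3a showed the same split, since its brightest probe set passed neither test (0.06 in both) while another read 10.73 and 10.43 with Ncl siRNA #1, 10.79 and 10.93 with Ncl siRNA #2, and 11.69 and 11.54 in control arrays, a difference of -1.03 and -0.76.

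The remaining subunits changed by less. With Ncl siRNA #2, Eif3e fell by 0.14 (adjusted p = 0.00778), Eif3h by 0.15 (adjusted p = 0.0202) and Eif3f by 0.12 (adjusted p = 0.0443), while Eif3i rose by 0.13 (adjusted p = 0.0254). Another Eif3e probe set of nearly the same brightness was higher with both siRNAs, by 0.20 and 0.14, and a further bright one was lower by 0.28 and 0.23, so the direction of Eif3e is not settled. With Ncl siRNA #1 the same 4 genes differed by -0.09, -0.09, -0.10 and 0.05 and passed no test. Eif3l and Eif3m passed in neither comparison. None of the 11 eIF3 genes passed between Ncl siRNA #2 and Ncl siRNA #1, where the differences ran from -0.13 to 0.08.

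**Figure D2:**
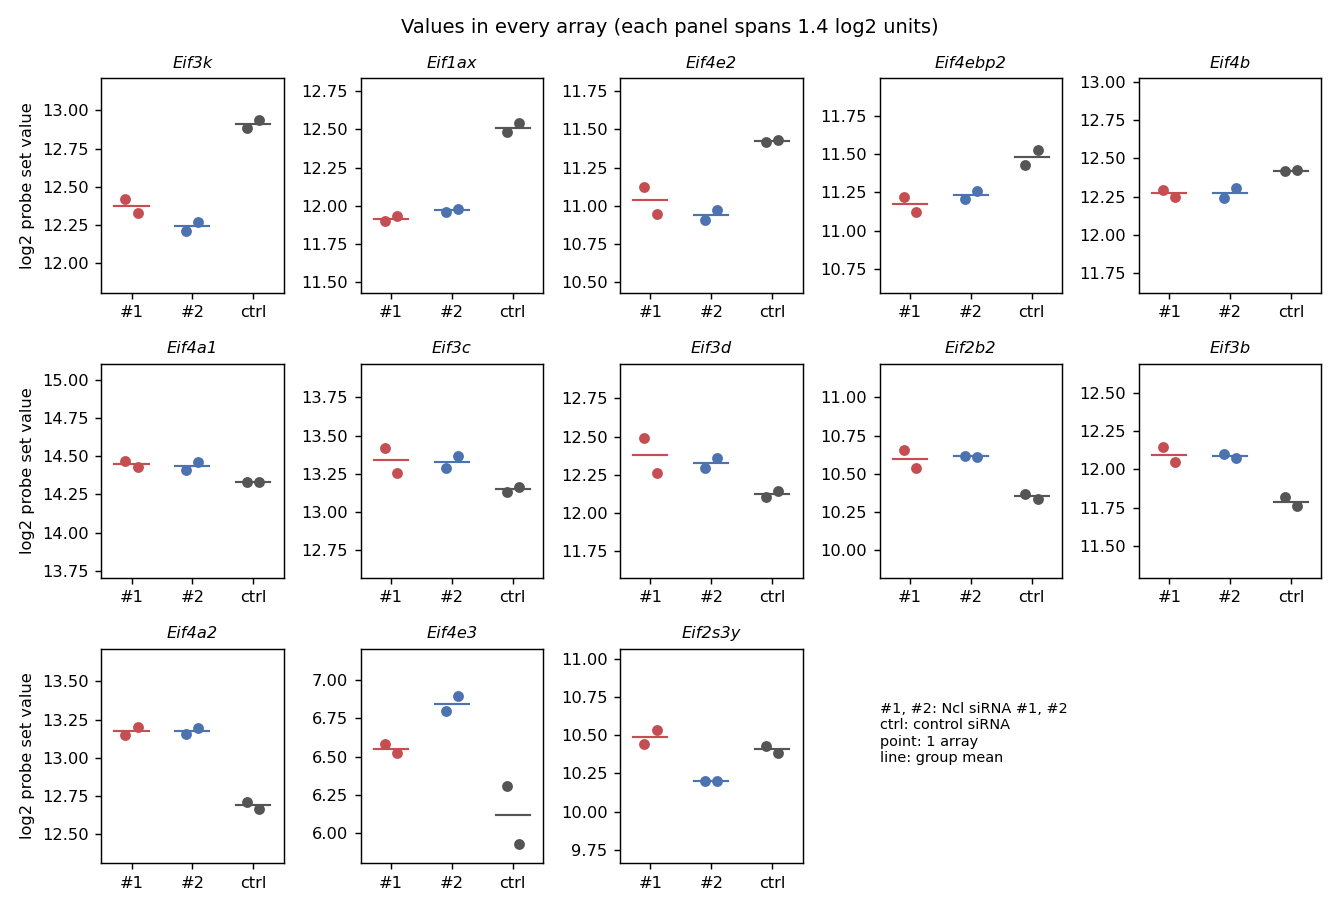
Each panel shows 1 gene with the log2 probe set value on the vertical axis, spanning 1.4 log2 units, and the Ncl siRNA #1, Ncl siRNA #2 and control siRNA arrays from left to right as points with a line at the group mean. The 12 genes called with both siRNAs and Eif2s3y are drawn. Both Ncl siRNA groups lie on the same side of the control arrays in the 12, and Eif2s3y is low in the Ncl siRNA #2 arrays.

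Among the 13 genes of eIF4 and its binding proteins, 4 rose and 3 fell with Ncl siRNA #1, and 4 rose and 4 fell with Ncl siRNA #2. The helicase genes Eif4a1 and Eif4a2, whose near-identical proteins unwind the mRNA, both rose on the probe set used for the gene. Eif4a2 read 13.15 and 13.20 in the arrays of each Ncl siRNA, against 12.71 and 12.66 in control arrays. It rose by 0.49 with Ncl siRNA #1 (SE 0.05, adjusted p = 1.42e-08) and by 0.49 with Ncl siRNA #2 (SE 0.05, adjusted p = 1.18e-08), or 140% of control in both, from its only probe set. Eif4a1 read 14.47 and 14.43 with Ncl siRNA #1, 14.41 and 14.46 with Ncl siRNA #2, and 14.33 in both control arrays. Its rises of 0.12 (adjusted p = 0.0171) and 0.10 (adjusted p = 0.0332) did not pass after median centring (0.10, adjusted p = 0.0503, and 0.05, adjusted p = 0.335). The other Eif4a1 probe sets, also bright at means of 14.02 and 13.82, passed no test. They differed by 0.03 and 0.05, and by -0.04 and -0.08. Averaged over its 3 probe sets, Eif4a1 differed by 0.03 (adjusted p = 0.446) and 0.02 (adjusted p = 0.625). Eif4a3, which works in the exon junction complex rather than at the cap, read 4.62 to 5.05 in the 6 arrays, below every array's median of 5.73 to 5.79, and passed in neither comparison.

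Of the cap-binding proteins, Eif4e, the main one, fell with Ncl siRNA #2. It read 12.19 and 12.10 with Ncl siRNA #1, 12.01 and 12.02 with Ncl siRNA #2, and 12.25 and 12.23 in control arrays. The Ncl siRNA #2 arrays lay below the others, by 0.22 against control (SE 0.05, adjusted p = 0.00104), and the difference with Ncl siRNA #1 was -0.09 (adjusted p = 0.167). A dimmer Eif4e probe set was lower with both, by 0.44 and 0.70.

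Eif4e2, which encodes 4EHP, a cap-binding protein that represses rather than starts translation, fell with both siRNAs. It read 11.13 and 10.95 with Ncl siRNA #1, 10.91 and 10.97 with Ncl siRNA #2, and 11.42 and 11.43 in control arrays. The groups did not overlap, and the falls were 0.39 (SE 0.06, adjusted p = 4.05e-05) and 0.49 (SE 0.06, adjusted p = 1.86e-06), to 76.4% and 71.4% of control. The second brightest probe set showed larger differences, of -0.71 and -0.92, and the other 3, which were dimmer, passed no test. Averaged over all 5, Eif4e2 differed by -0.04 and -0.20 and did not pass.

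Eif4e3, a further member of the family, had the highest difference among members with Ncl siRNA #2 but a dim probe set. It read 6.58 and 6.52 with Ncl siRNA #1, 6.80 and 6.89 with Ncl siRNA #2, and 6.31 and 5.93 in control arrays, which were themselves 0.38 apart. The rise was 0.73 with Ncl siRNA #2 (SE 0.16, adjusted p = 0.000842) and 0.43 with Ncl siRNA #1 (SE 0.16, adjusted p = 0.0397). The Ncl siRNA #1 call was lost in 10 of 16 alternatives. Among them were control replicate 2 left out (0.24) and quantile normalization (0.34, adjusted p = 0.0949). Fitted singly in limma, this probe set was not called with Ncl siRNA #1 (adjusted p = 0.0535). The other Eif4e3 probe set, dimmer at a mean of 5.57, was higher with both siRNAs when fitted singly, by 0.6635 and 0.675.

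The proteins that hold eIF4E also differed among themselves. Eif4ebp2, a 4E-binding protein, read 11.22 and 11.12 with Ncl siRNA #1, 11.21 and 11.26 with Ncl siRNA #2, and 11.43 and 11.53 in control arrays, and fell by 0.31 (SE 0.06, adjusted p = 0.000264) and 0.25 (SE 0.06, adjusted p = 0.0019). Fitted singly in limma, the second brightest Eif4ebp2 probe set was also lower with both siRNAs. Its differences were -0.54 with Ncl siRNA #1 (adjusted p = 0.000474) and -0.46 with Ncl siRNA #2 (adjusted p = 0.00171). The dimmer Eif4ebp2 probe sets passed no test. Averaged over its 5 probe sets, Eif4ebp2 differed by -0.17 (adjusted p = 0.202) and -0.08 (adjusted p = 0.588) and passed neither test. Eif4ebp1, its better studied relative, read 12.97 and 13.07 with Ncl siRNA #1, 13.19 and 13.14 with Ncl siRNA #2, and 12.98 and 13.10 in control arrays. It passed neither test (-0.03 and 0.12), and the Ncl siRNA #2 arrays were the highest. The Ncl siRNA #2 difference of Eif4ebp1 did pass in 8 of 17 alternatives. The mean of its 3 probe sets was higher with both siRNAs (0.25, adjusted p = 0.00544, and 0.18, adjusted p = 0.0256), and its dimmest probe set had the largest differences of them (0.74 and 0.42). Eif4enif1, the eIF4E transporter, differed by 0.15 and 0.07 and passed neither test.

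Eif4b and Eif4h encode related helpers of the eIF4A helicase. Eif4b read 12.30 and 12.25 with Ncl siRNA #1, 12.24 and 12.31 with Ncl siRNA #2, and 12.42 in both control arrays, and fell by 0.15 with each (adjusted p = 0.0225 and 0.0215). Eif4h rose by 0.13 with Ncl siRNA #1 (adjusted p = 0.0235) and differed by 0.10 with Ncl siRNA #2 (adjusted p = 0.0621). Its next 2 probe sets in brightness were higher with both siRNAs, by 0.38 and 0.43 with Ncl siRNA #1 and by 0.39 and 0.36 with Ncl siRNA #2. Eif4g2, a scaffold protein that lacks the eIF4E-binding part of eIF4G, read 13.99 and 14.14 with Ncl siRNA #1, 14.20 and 14.05 with Ncl siRNA #2, and 13.99 and 13.92 in control arrays. It rose by 0.17 with Ncl siRNA #2 (adjusted p = 0.0128) and differed by 0.10 with Ncl siRNA #1 (adjusted p = 0.125). Without Ncl siRNA #2 replicate 1 the Eif4g2 difference with that siRNA was 0.09 and did not pass (adjusted p = 0.297). Its next 2 probe sets in brightness were higher with both siRNAs, by 0.23 and 0.55 with Ncl siRNA #1 and by 0.18 and 0.29 with Ncl siRNA #2, and the dimmer of these was lower with Ncl siRNA #2 than with Ncl siRNA #1 (-0.26, adjusted p = 0.0256), while the brightest did not differ detectably between them (0.06). Eif4g3 passed in neither comparison.

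Of the 11 other factors, 2 fell and none rose with each siRNA. Eif1ax, which encodes the scanning factor eIF1A on the X chromosome, read 11.90 and 11.93 with Ncl siRNA #1, 11.96 and 11.98 with Ncl siRNA #2, and 12.48 and 12.54 in control arrays. The groups lay far apart beside the spread within them. Eif1ax fell by 0.59 with Ncl siRNA #1 (SE 0.05, adjusted p = 3.08e-09), to 66.3% of control, and by 0.54 with Ncl siRNA #2 (SE 0.05, adjusted p = 1.08e-08), to 68.9%. Its dimmest probe set went the other way, reading 6.80 and 6.70 with Ncl siRNA #1, 6.57 and 6.26 with Ncl siRNA #2, and 5.78 and 5.85 in control arrays. With the mean of its 3 probe sets the difference was 0.10 with Ncl siRNA #1 and -0.07 with Ncl siRNA #2, and neither passed.

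Eif1a, a relative of Eif1ax, did not pass (0.01 and 0.00) in a probe set that read 11.57 to 11.65 in all arrays. Eif1b, a relative of the start codon selection factor eIF1, fell by 0.27 with Ncl siRNA #2 (SE 0.08, adjusted p = 0.0067) and differed by -0.04 with Ncl siRNA #1. The test between the siRNAs gave -0.23 for Eif1b (adjusted p = 0.0686).

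Eif5, which activates the GTPase of eIF2 at the start codon, read 12.46 and 12.44 with Ncl siRNA #1, 12.55 and 12.58 with Ncl siRNA #2, and 12.62 and 12.71 in control arrays. It fell by 0.22 with Ncl siRNA #1 (SE 0.05, adjusted p = 0.000999) and differed by -0.10 with Ncl siRNA #2 (adjusted p = 0.122). The next 2 Eif5 probe sets, at almost the same brightness, were higher with both siRNAs, by 0.26 and 0.31 with Ncl siRNA #1 and by 0.28 and 0.42 with Ncl siRNA #2. Averaged over its 5 probe sets, Eif5 differed by 0.06 (adjusted p = 0.372) and 0.15 (adjusted p = 0.0254).

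The late-acting factors did not pass with the values as deposited. Eif5a, the hypusine-bearing factor that also serves elongation, read 14.50 and 14.45 with Ncl siRNA #1, 14.46 and 14.47 with Ncl siRNA #2, and 14.37 and 14.39 in control arrays, with differences of 0.09 (adjusted p = 0.0546) and 0.08 (adjusted p = 0.0909). All 4 Ncl siRNA arrays lay above the control arrays, and after quantile normalization Eif5a passed with both siRNAs (0.13, adjusted p = 0.0174, and 0.14, adjusted p = 0.0144). Eif6, which keeps large ribosomal subunits from joining too early, read 12.08 and 11.92 with Ncl siRNA #1, 11.91 and 11.93 with Ncl siRNA #2, and 11.81 and 11.91 in control arrays, with differences of 0.14 (adjusted p = 0.0671) and 0.06 (adjusted p = 0.466). Eif6 passed with Ncl siRNA #1 after quantile normalization (0.16, adjusted p = 0.0315) and with Ncl siRNA #2 on the mean of its probe sets (0.17, adjusted p = 0.0353). On their brightest probe sets, Eif5b, Eif5a2, Eif2a, Eif2d and Eif1ad differed by no more than 0.14 in either direction. Dimmer probe sets, fitted singly, were called for 3 of these. With Ncl siRNA #1 they were 1 of Eif1ad (0.31, adjusted p = 0.00764) and 1 of Eif2d (-0.43, adjusted p = 0.0438), and with Ncl siRNA #2, 1 of Eif5a2 (-0.37).

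Probe sets of the same gene did not always move together. There were 120 probe sets for the 43 genes, and 33 genes had several. Fitted singly among all 45101 probe sets, 21 of the 120 were higher and 17 lower with Ncl siRNA #1, where 27.2% of all probe sets passed (14.7% higher, 12.5% lower), and 20 were higher and 28 lower with Ncl siRNA #2, where 28.6% passed (13% higher, 15.5% lower). Probe sets of the same gene were called in opposite directions for 6 of the 33 genes with Ncl siRNA #1 (18.2%) and for 4 with Ncl siRNA #2 (12.1%), against 3.64% and 2.6% of all 9012 genes with several probe sets. These shares were not matched for brightness or for the number of probe sets of a gene. Eif2s2 is a case in which the brightest probe set hides others: of its 6, a probe set that read 12.34 and 12.79 with Ncl siRNA #1, 12.55 and 12.54 with Ncl siRNA #2, and 13.26 and 13.27 in control arrays was lower by 0.70 and 0.72. The cause of such splits was not tested.

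**Figure D3:**
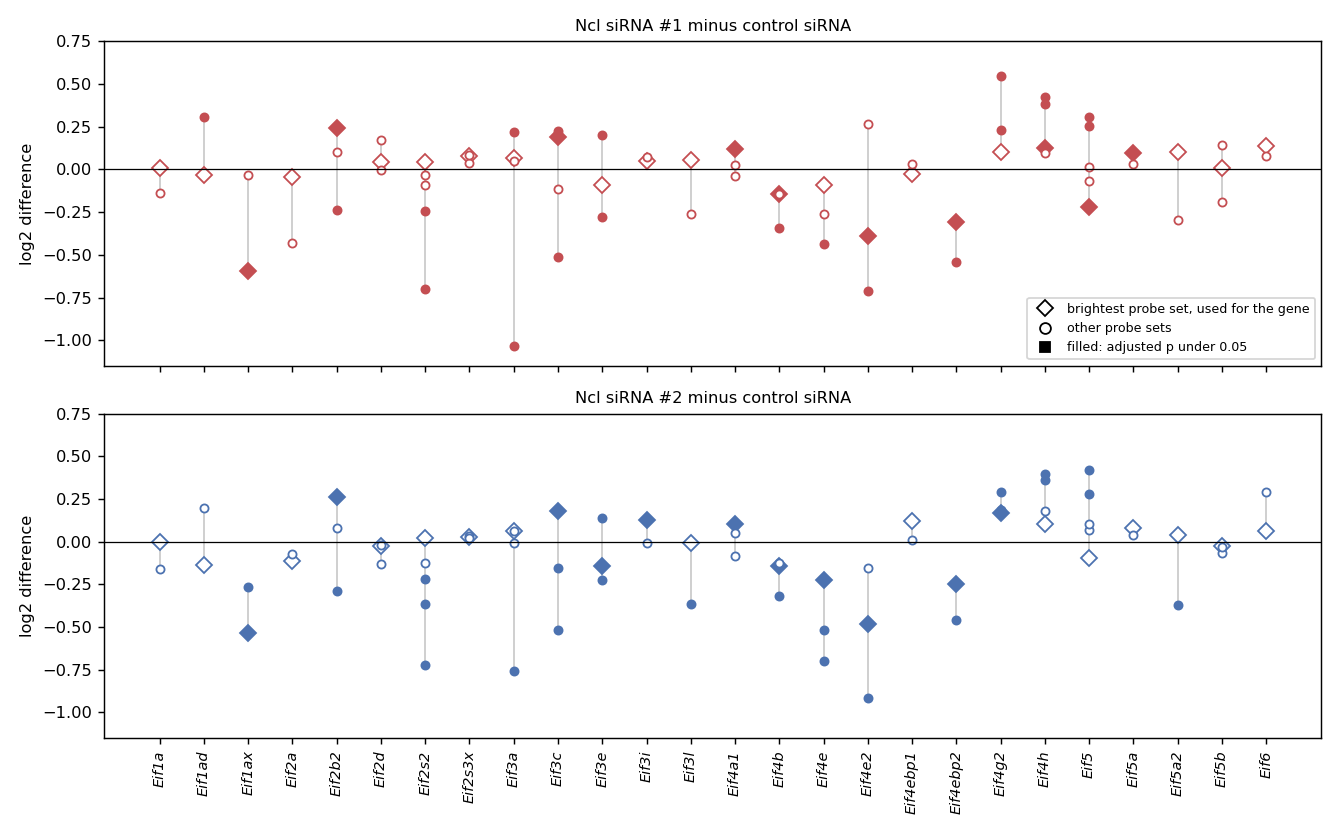
The log2 difference from control siRNA is plotted for every probe set with a mean of at least 7 in the 26 members with more than 1 such probe set, for Ncl siRNA #1 above and Ncl siRNA #2 below. Diamonds are the brightest probe set of each gene, circles the others, and filled symbols passed when each probe set was fitted by itself. Eif2b2, Eif3c and Eif5 have probe sets on both sides of 0, and single probe sets of Eif3a and Eif2s2 lie lowest with Ncl siRNA #1, together with one of Eif4e2.

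Between the siRNAs the members were close. In Ncl siRNA #2 against Ncl siRNA #1, 1 of 43 fell (Eif2s3y) and 0 rose, where 8.48% of all genes passed (2.3% higher, 6.18% lower), from limma with adjusted p under 0.05. Differences ran from -0.29 to 0.30, with a median of -0.05 against -0.03 over all genes. None reached 0.5, where 3.22% of all genes did, and the 2 siRNAs did not overlap for 18 members, where 54.2% of all genes did not. Fitted singly in limma, 4 of the 120 member probe sets were lower and 0 higher, 1 each of Eif2s2, Eif2s3y, Eif4e and Eif4g2. Those of Eif2s2 (-0.28, adjusted p = 0.0159) and Eif4e (-0.26, adjusted p = 0.0425) were dimmer than the probe set used for the gene. The share over all probe sets was not counted, so the 4 of 120 cannot be read as a result about the members as a set. For Eif4a2, the difference between the siRNAs was 0.00 with a 95% interval from -0.10 to 0.09, and for Eif3b it was -0.01 with an interval from -0.12 to 0.10. Eif1ax differed by 0.05 (interval -0.05 to 0.16). With replicate 2 of Ncl siRNA #1 left out, 10 members fell and 1 rose, so this count depends on that array.

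The kinases and phosphatase that act on eIF2, with the stress-response genes read out downstream, moved in both directions. Of 13 genes, 4 rose and 4 fell with Ncl siRNA #1 (median 0.05), and 4 rose and 5 fell with Ncl siRNA #2 (median 0.11). For this list and those that follow, the background is all genes. Of these, 20.2% rose and 17.3% fell with Ncl siRNA #1, and 17.7% rose and 21.7% fell with Ncl siRNA #2. The counts of the lists were not tested against these shares. Atf3, a stress-induced transcription factor, read 9.064 and 8.996 with Ncl siRNA #1, 9.33 and 9.34 with Ncl siRNA #2, and 5.94 and 6.01 in control arrays, a rise of 3.06 (SE 0.10, adjusted p = 1.08e-15) and 3.36 (SE 0.10, adjusted p = 1.75e-16). Ddit3, which encodes CHOP, rose by 0.97 and 1.10, and Ppp1r15a, the subunit that directs the phosphatase to eIF2 and is known as GADD34, by 0.81 and 1.04. Atf4, the factor whose translation increases when eIF2 is phosphorylated, differed by 0.05 and 0.12 and passed neither test. Its target Chac1 fell by 1.00 with Ncl siRNA #1 and fell by 1.16 with Ncl siRNA #2, and the RNA-sensing kinase gene Eif2ak2 had differences of -0.86 and -0.95, both called, so the genes of the list did not move as 1 group. Trib3, a further target, passed in neither comparison (0.16 and 0.11).

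In the arm from mTOR and MAP kinases to eIF4E, 7 of 13 measured genes rose and 1 fell with Ncl siRNA #1 (median 0.18), and 4 rose and 2 fell with Ncl siRNA #2 (median 0.07). Ddit4, an inhibitor of mTOR complex 1 known as REDD1, read 12.73 and 12.74 with Ncl siRNA #1, 12.80 and 12.88 with Ncl siRNA #2, and 10.25 and 10.36 in control arrays, a rise of 2.43 (SE 0.05, adjusted p = 6.33e-19) and 2.54 (SE 0.05, adjusted p = 2.05e-19). Pdcd4, which binds and inhibits eIF4A, read 10.33 and 10.37 with Ncl siRNA #1, 10.18 and 10.22 with Ncl siRNA #2, and 9.64 and 9.68 in control arrays, a rise of 0.69 and 0.54. Mtor fell by 0.31 with Ncl siRNA #2 (adjusted p = 0.00607) and differed by -0.08 with Ncl siRNA #1. Sesn2 fell by 0.31 and 0.36, and Sesn1 was lower in Ncl siRNA #2 against Ncl siRNA #1 by 0.35 (adjusted p = 0.0426). Rps6kb1 was not analysed here.

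Of 11 genes for poly-A binding and scanning helpers, 4 rose and 2 fell with Ncl siRNA #1 (median -0.01), and 4 rose and 5 fell with Ncl siRNA #2 (median -0.07). Paip1, which promotes the poly-A binding protein's contact with the cap complex, rose by 0.77 and 0.79, whereas Paip2b, an inhibitor of that protein, fell by 0.64 and 0.84. Pabpc1, the poly-A binding protein itself, rose by 0.22 and 0.31, and the helicase gene Ddx3x by 0.25 and 0.28. Mcts1, which helps recycle the small subunit, rose by 0.52 and 0.44, and its relative Mcts2 fell by 0.49 and 0.56.

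Of 11 measured elongation and release genes, 3 rose and 4 fell with Ncl siRNA #1 (median -0.08), and 3 rose and 5 fell with Ncl siRNA #2 (median -0.15). Eef2k, the kinase that inhibits elongation factor 2, read 7.33 and 7.11 with Ncl siRNA #1, 7.07 and 6.87 with Ncl siRNA #2, and 8.41 and 8.46 in control arrays, with differences of -1.22 (adjusted p = 9.26e-08) and -1.47 (adjusted p = 4.35e-09). Its substrate gene Eef2 rose by 0.32 and 0.38. Eef1d fell by 0.20 and 0.28, and Dohh, the enzyme that completes hypusine on eIF5A, fell by 0.21 and 0.26. Eef1g was not analysed here.

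**Figure D4:**
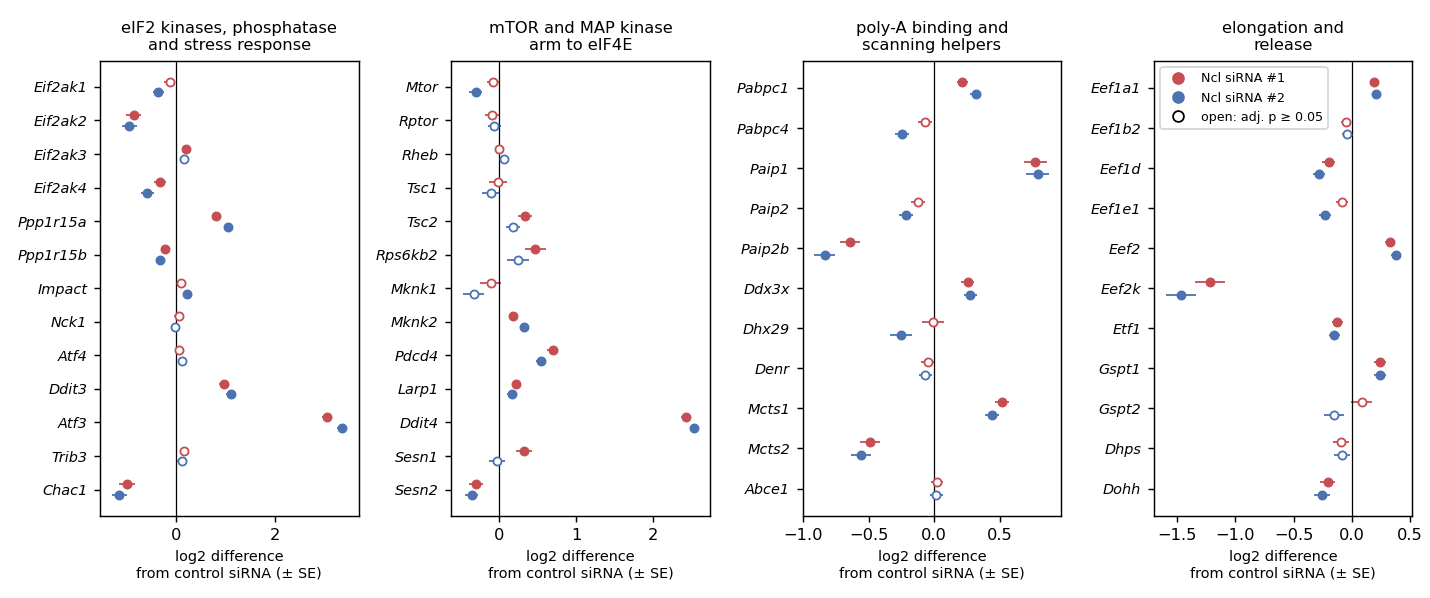
The log2 difference from control siRNA (horizontal axis, bars of 1 SE from limma) is plotted for the genes of 4 lists around the initiation factors, in red for Ncl siRNA #1 and blue for Ncl siRNA #2, with open points where the adjusted p was 0.05 or more. Each panel has its own scale. Atf3 and Ddit4 lie farthest to the right and Eef2k farthest to the left.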

How the data were processed

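Total RNA was labelled with biotin by an Affymetrix IVT kit, per the labels. The values deposited by the authors are log2 values, from 2.47 to 15.3, with array medians from 5.73 to 5.79 and lower quartiles from 4.17 to 4.32. The method by which the authors summarised and normalized them is not given in the sources used here. Differences of these values were taken without further scaling, and the percent of control and folds are powers of them.

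Of 45101 probe sets, 34958 carried 1 symbol in the platform annotation. The brightest for each gene was kept, which left 18194 genes. A linear model with group means for the 6 arrays came from limma 3.58.1 with R 4.3.3 (empirical Bayes variances with a trend, 3 residual and 17.5 prior degrees of freedom), with Benjamini-Hochberg adjustment over all genes and a threshold of 0.05. The fit was tested on simulated data. Gene identifiers of all 43 members were in RefSeq with the same symbol.

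The members, gene lists and tests were chosen with earlier results of these data known. Values in every array are given for genes called with both siRNAs, for the gene called between them and for a fixed set of subunits. Those of dimmer probe sets and of genes in the surrounding lists were added after the values were seen. Alternatives were quantile normalization, median centring, the mean of all probe sets, leaving out probe sets shared between transcripts (_x_at and _s_at), leaving out dim genes, other variance models, fewer arrays, array weights, the replicate block, a threshold of 0.01 and each array left out. Fitting each probe set by itself was added after the data were seen.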

Additional observations from a re-analysis of the deposited data

Results flagged for a closer look

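A probe set outside the gene tests, annotated to Gm4027, BB287469 and Eif1a together, had a signal far above its control level. It read 11.12 and 11.28 with Ncl siRNA #1, 12.43 and 12.48 with Ncl siRNA #2, and 5.39 and 6.22 in control arrays. The difference from control was 5.40 with Ncl siRNA #1 (SE 0.17, adjusted p = 5.12e-13) and 6.65 with Ncl siRNA #2 (SE 0.17, adjusted p = 2.04e-14), in limma with each probe set fitted by itself. It was also higher in Ncl siRNA #2 than in Ncl siRNA #1, by 1.26 (adjusted p = 0.000372). The control arrays lay near the array medians of 5.73 and 5.74, and no detection call was used here, so the control level may be background and the differences are best read as lower bounds. The brightest probe set annotated to Eif1a alone differed by 0.01 and 0.00, and the signal of the shared probe set cannot be given to 1 of its 3 genes.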

How the results depend on the processing

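With each array left out in turn, members called higher ranged from 5 to 13 and lower from 5 to 9 for Ncl siRNA #1 against control, from 6 to 12 and from 5 to 14 for Ncl siRNA #2 against control, and from 0 to 1 and from 0 to 10 for Ncl siRNA #2 against Ncl siRNA #1. Leaving out Ncl siRNA #1 replicate 2 gave the 13 and the 10, leaving out Ncl siRNA #1 replicate 1 or control replicate 2 gave 5 higher with Ncl siRNA #1, and leaving out Ncl siRNA #2 replicate 1 gave 5 lower with Ncl siRNA #2, against 7 without either control array. Median centring gave 4 higher for Ncl siRNA #2 against control and 3 lower between the siRNAs. The mean of all probe sets gave 5 higher with Ncl siRNA #1 and 0 lower between the siRNAs. Without genes below the median signal, 1 was higher and 2 lower between the siRNAs. Variances without a trend gave 2 higher with Ncl siRNA #1, 3 higher and 3 lower with Ncl siRNA #2, and 0 lower between the siRNAs. An adjusted p under 0.01 left 5 higher with Ncl siRNA #1, and 5 higher and 7 lower with Ncl siRNA #2. Reversals came only from the mean of all probe sets, which gave Eif1ax 0.10, Eif2s2 -0.19, Eif3c -0.052, Eif4ebp1 0.25 and Eif5 0.059 with Ncl siRNA #1, and Eif2s2 -0.29, Eif3c -0.078 and Eif5 0.15 with Ncl siRNA #2. The cause was not tested. Of the 12 genes called with both siRNAs, Eif3b, Eif3k and Eif4a2, each with 1 probe set, kept both calls in every alternative, and Eif1ax and Eif4e2 lost theirs only with the mean of all probe sets. The replicate block called 8 higher and 6 lower with Ncl siRNA #1 and 9 and 11 with Ncl siRNA #2, and changed the call of none of 78 named results. Deviations of arrays with the same number correlated at -0.02 (Ncl siRNA #1 and control), 0.00 (Ncl siRNA #2 and control) and 0.01 (the siRNAs).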

Other observations

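Probe sets with an initiation factor among several symbols could not be given to 1 gene. The probe set annotated to Gm5576 and Eif4a3 read 12.74 and 12.65 with Ncl siRNA #1, 12.82 and 12.92 with Ncl siRNA #2, and 12.54 and 12.57 in control arrays. It was higher by 0.32 with Ncl siRNA #2 (adjusted p = 9.67e-05) and differed by 0.14 with Ncl siRNA #1 (adjusted p = 0.0529). RefSeq lists Gm5576 as a pseudogene. Of 3 probe sets annotated to Eif3j1 and Eif3j2, 1 was lower by 0.22 and 0.21 (adjusted p = 0.00778 and 0.00862), and the other two passed neither test. The probe set annotated to Ankhd1 and Eif4ebp3 was lower by 0.43 with Ncl siRNA #2 (adjusted p = 0.00338) and differed by -0.24 with Ncl siRNA #1 (adjusted p = 0.093).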
